A study of Mus musculus with 12 samples.

Results

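Radial glia are the neural stem cells of the embryonic cortex, and 10 genes commonly used to mark them were followed in bulk RNA sequencing of mouse embryonic cortex at embryonic stage E15.5. The genes were taken from the deposited count tables by matching Ensembl identifiers to a given list of symbols. These were Nes, Vim, Fabp7, Prom1, Dbi, Mfge8, Slc1a3, Ednrb, Lix1 and Tfap2c. The matching itself used no expression values, but the list was chosen with earlier results of these data known. Counts of called markers set beside those of all genes are therefore descriptions. Each symbol matched 1 identifier, so 10 of the 48709 listed genes were followed, and all 10 were among the 16511 genes with enough reads to be tested. Together they took 0.213% to 0.243% of the reads of a BAF155 cKO library, 0.246% to 0.264% of a library labelled Pax6 cKO and 0.254% to 0.272% of a control library.

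The study compared 3 groups of 4 libraries from C57BL/6J cortex: a conditional knockout (cKO) of BAF155, a conditional knockout of Pax6, and controls. BAF155, encoded by Smarcc1, is a core subunit of the BAF (SWI/SNF) chromatin remodelling complex, and Pax6 is a transcription factor of cortical radial glia. The series compares each knockout with control and, by its title, concerns how basal progenitors arise. The study's sources name neither the Cre driver nor the deleted exons nor the genotype of the controls. They also do not say whether libraries of 1 group come from different embryos. The p-values therefore measure the spread among these libraries only, and that spread may be technical.

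Radial glia span the wall of the developing cortex, with cell bodies in the ventricular zone, an apical contact at the ventricle and a long basal fibre along which newborn neurons migrate. They divide to renew themselves and to give rise to neurons or to basal progenitors, and late in development they turn to making glia. Their usual markers come from several parts of this biology. They include the filament proteins of the fibre, a protein of the apical membrane, and carriers of fatty acids and their CoA esters. Others are a glutamate transporter, a secreted bridging protein, a peptide receptor and a transcription factor.

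Counted reads numbered 15155249 to 28259887 in BAF155 cKO libraries, 22812398 to 32047949 in libraries labelled Pax6 cKO and 21408501 to 30313880 in controls. Smarcc1 averaged 127 ± 10.8 CPM in BAF155 cKO, 186 ± 6.71 CPM in libraries labelled Pax6 cKO and 303 ± 68.7 CPM in controls (SD, n = 4 each; CPM, counts scaled to a common library size with TMM). Pax6 averaged 314 ± 40.3 CPM in BAF155 cKO, 389 ± 8.74 CPM in libraries labelled Pax6 cKO and 110.2 ± 19.1 CPM in controls (SD, n = 4 each). Pax6 RNA was thus higher than in controls where the label names its knockout, which goes against that label as far as whole-gene counts can show, since reads from deleted and retained exons are not separated. Xist and Y-linked genes divided the libraries into female and male: all 4 BAF155 cKO libraries and control replicates 3 and 4 were female, and all 4 libraries labelled Pax6 cKO and control replicates 1 and 2 were male. In the deposited file names lane 1 holds BAF155 cKO replicates 1 and 2 together with every library labelled Pax6 cKO, lane 3 holds BAF155 cKO replicates 3 and 4, and lane 8 holds the controls. Lane and genotype therefore cannot be told apart in either comparison with control. Within the controls, replicates 3 and 4 stood apart from replicates 1 and 2 in mitochondrial reads (1.21% and 1.38%, against 2.27% and 2.18%). In the same replicates genes with short transcripts were lower against genes with long ones (log2 differences from the mean of all libraries of -0.34 and -0.37, against -0.01 and -0.12). The same difference between short and long genes was 0.17 to 0.28 in libraries labelled Pax6 cKO and -0.17 to 0.21 in BAF155 cKO.

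The labelled tissue was checked by Neurod6, a marker of cortical excitatory neurons, which averaged 708 ± 117 CPM in BAF155 cKO, 707 ± 51.3 CPM in libraries labelled Pax6 cKO and 1085 ± 107 CPM in controls (SD, n = 4 each). Neurod6 is 1 of 10 neuronal markers counted further below. Their median log2 fold change against control was -0.19 in BAF155 cKO and -0.24 in libraries labelled Pax6 cKO. Every one of the 10 radial glia markers was detected in every library, at the least with 186 reads (Tfap2c) and at the most with 37336 (Fabp7). In bulk tissue, fewer radial glia and less RNA per radial glial cell cannot be told apart.

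Relative to control, 6 of the 10 markers were lower in BAF155 cKO and none was higher, and 6 were lower and 1 higher in the libraries labelled Pax6 cKO. At an unadjusted p under 0.05, 1 marker (Mfge8) was higher in BAF155 cKO, and DESeq2 likewise called none higher there. The 6 lower genes were Nes, Vim, Prom1, Slc1a3, Lix1 and Tfap2c in both comparisons, which share the same control libraries. A gene is called here where its adjusted p is under 0.05 in edgeR's quasi-likelihood test with Benjamini-Hochberg adjustment over all tested genes. By that rule 13.6% of all genes were called in BAF155 cKO against control, 6.04% higher and 7.56% lower. In the libraries labelled Pax6 cKO against control 35.5% were called, 16.6% higher and 18.9% lower, so a call there is a common outcome. The median log2 fold change of the 10 markers was -0.43 in BAF155 cKO and -0.45 in the libraries labelled Pax6 cKO, beside medians over all tested genes of 0.01 and 0.02. Of the 10 markers, 4 in BAF155 cKO had all libraries below every control and none had all above, where 14.4% of all genes were separate in this way, 6.47% above and 7.95% below. In the libraries labelled Pax6 cKO 6 markers were wholly below and 2, Fabp7 and Dbi, wholly above the controls, where 35.6% of all genes were separate, 17.2% above and 18.3% below. The size of the change divided the markers: Slc1a3 and Lix1 fell further in BAF155 cKO, and Tfap2c fell further in the libraries labelled Pax6 cKO.

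**Figure D1:**
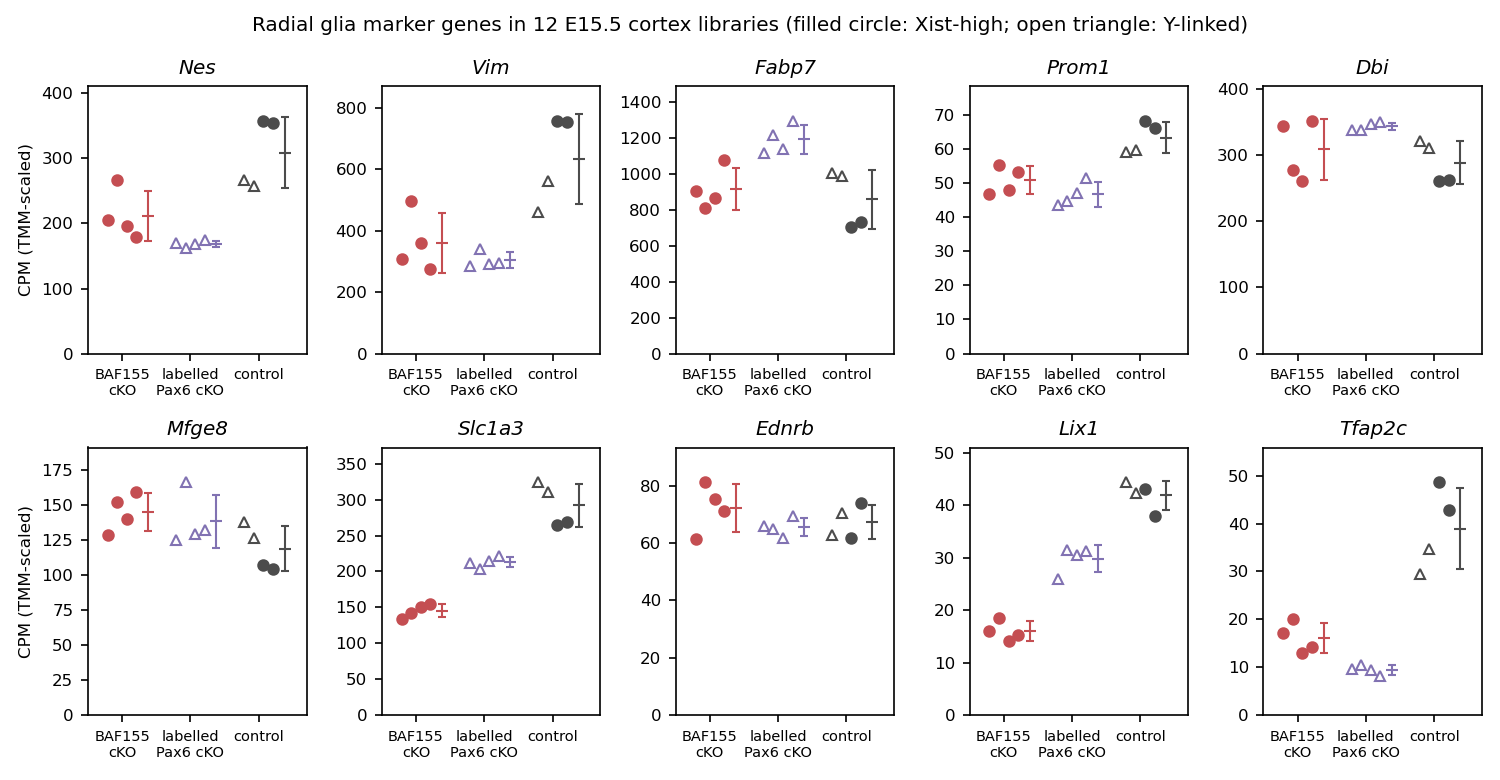
Expression of the 10 markers in each library (y axis, CPM after TMM scaling, from 0) by group (x axis: BAF155 cKO, labelled Pax6 cKO, control); points are libraries, filled circles female and open triangles male, and the bar beside them is the mean ± SD of 4 libraries. Lix1 and Slc1a3 are lowest in BAF155 cKO, between in labelled Pax6 cKO and highest in control without overlap, Tfap2c is lowest in labelled Pax6 cKO, and the 2 female controls sit apart from the 2 male ones for 8 of the 10 markers, all but Ednrb and Lix1.

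Promoter sequences are shown for 4 markers: Slc1a3 and Lix1, whose RNA was lower in BAF155 cKO than in libraries labelled Pax6 cKO and lower in both than in controls, and Nes and Fabp7, whose RNA varied in opposite directions across the libraries. They are RefSeq promoter windows (build GRCm38.p6), available for 9 of the 10 markers, with Tfap2c named only. Each is read 5′ to 3′ on the gene's strand, up to 250 bases before the transcription start, and was cut at the first annotated exon base. The window of Vim began on an exon base, so none of it was left. Capitals mark every match, on either strand, to 6 short motifs. These are the TATA box core TATAA, the CCAAT box, the GC box with letters GGGCGG, the RBPJ motif of the Notch pathway with letters GTGGGAA, a SOX motif with letters ACAATG and the homeodomain core TAATTA. The windows are chr15:8710808-8711057 on the minus strand for Slc1a3, chr17:17402436-17402671 on the plus strand for Lix1, chr3:87970843-87971077 on the plus strand for Nes and chr10:57784673-57784880 on the plus strand for Fabp7.
Slc1a3: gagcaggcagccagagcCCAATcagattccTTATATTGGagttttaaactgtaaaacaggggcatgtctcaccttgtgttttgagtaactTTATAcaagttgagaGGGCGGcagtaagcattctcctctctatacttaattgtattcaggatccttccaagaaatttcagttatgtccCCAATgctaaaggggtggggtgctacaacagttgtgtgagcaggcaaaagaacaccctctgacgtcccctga
Lix1: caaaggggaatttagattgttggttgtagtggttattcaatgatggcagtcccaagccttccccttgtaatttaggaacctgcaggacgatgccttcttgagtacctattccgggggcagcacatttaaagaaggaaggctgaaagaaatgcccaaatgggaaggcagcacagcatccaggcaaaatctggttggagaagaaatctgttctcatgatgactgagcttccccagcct
Nes: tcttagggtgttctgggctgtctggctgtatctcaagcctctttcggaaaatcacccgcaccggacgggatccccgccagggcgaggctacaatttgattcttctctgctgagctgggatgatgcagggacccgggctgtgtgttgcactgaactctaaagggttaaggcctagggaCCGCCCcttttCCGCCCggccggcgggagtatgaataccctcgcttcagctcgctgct
Fabp7: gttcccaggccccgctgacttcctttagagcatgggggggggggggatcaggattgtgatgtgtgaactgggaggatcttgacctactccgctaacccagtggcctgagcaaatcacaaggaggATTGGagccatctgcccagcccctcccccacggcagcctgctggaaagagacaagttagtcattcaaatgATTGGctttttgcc
The Slc1a3 window held 2 TATA box, 3 CCAAT box and 1 GC box match, 1 TATA box running into 1 CCAAT box, while the Lix1 window, of a gene that moved with it, held none of the 6 motifs. The Nes window held 2 GC box matches and the Fabp7 window 2 CCAAT box matches. Such matches are common: among all RefSeq windows of 250 bases, 22.8% hold a TATA box, 33.8% a CCAAT box and 32.7% a GC box. At the length of the Nes window 30.6% hold a GC box, and at that of the Fabp7 window 29.6% hold a CCAAT box. They describe letters in these windows and not bound sites.

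The level of each marker per transcript length, as RPKM (CPM divided by the length of the merged exons in kilobases), spanned a wide range. In controls Fabp7 was highest at 685 ± 131 RPKM, followed by Dbi at 203 ± 22.7, Vim at 133 ± 31.1, Nes at 48.2 ± 8.47 and Slc1a3 at 34.2 ± 3.50 (SD, n = 4). Mfge8 at 25.3 ± 3.41, Ednrb at 15.8 ± 1.41, Lix1 at 12.2 ± 0.81, Tfap2c at 10.6 ± 2.30 and Prom1 at 8.82 ± 0.64 RPKM came after them in controls (SD, n = 4). Of neighbours in this order, Lix1 and Tfap2c, and Tfap2c and Prom1, had overlapping ranges over the 4 control libraries. The top 3 were the same in each group. In BAF155 cKO, Slc1a3 at 17.0 ± 1.07 RPKM came after Mfge8 at 30.9 ± 2.90 and was level with Ednrb at 16.9 ± 1.96, and the lowest places were taken by Lix1 at 4.65 ± 0.54 and Tfap2c at 4.37 ± 0.87 RPKM (SD, n = 4). In the libraries labelled Pax6 cKO, Tfap2c was lowest at 2.55 ± 0.27 RPKM, and Mfge8 at 29.5 ± 4.02 and Nes at 26.3 ± 0.73 overlapped in range (SD, n = 4).

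Nestin and vimentin, encoded by Nes and Vim, are intermediate filament proteins of the radial fibre, and both genes were lower in both mutant groups. Nes (ENSMUSG00000004891, GRCm38 chr3:87971078-87980451) had 205, 267, 196 and 179 CPM in BAF155 cKO (here and below in the order of the replicate numbers), 169, 163, 168 and 174 CPM in libraries labelled Pax6 cKO, and 267, 257, 358 and 354 CPM in controls. Its log2 fold change was -0.55 (SE 0.13, edgeR adjusted p = 0.013) in BAF155 cKO and -0.87 (SE 0.13, edgeR adjusted p = 0.000236) in libraries labelled Pax6 cKO. BAF155 cKO replicate 2 reached the level of the 2 male controls, while all libraries labelled Pax6 cKO lay below every control. Vim (ENSMUSG00000026728, chr2:13573927-13582826) had 309, 498, 361 and 275 CPM in BAF155 cKO, 285, 341, 292 and 296 CPM in libraries labelled Pax6 cKO, and 461, 560.3, 757 and 754 CPM in controls. The log2 fold change of Vim was -0.81 (SE 0.18, edgeR adjusted p = 0.0089) in BAF155 cKO and -1.06 (SE 0.18, edgeR adjusted p = 0.000715) in libraries labelled Pax6 cKO. Here too BAF155 cKO replicate 2 lay within the range of the controls, and no library labelled Pax6 cKO did.

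The calls for Nes and Vim in BAF155 cKO depended on which libraries were used. With only BAF155 cKO replicates 1 and 2 (lane 1), the log2 fold change was -0.38 for Nes (adjusted p = 0.169) and -0.63 for Vim (adjusted p = 0.12), and with only replicates 3 and 4 (lane 3) it was -0.73 for Nes (adjusted p = 0.00481) and -1.0 for Vim (adjusted p = 0.005), all by edgeR. Fitted on the 8 compared libraries alone, Nes had an edgeR adjusted p of 0.053. Over all alternatives Nes ranged from 0.00141 to 0.169 and Vim from 0.000312 to 0.12 in adjusted p. Against the 2 controls of matching sex, Nes was -0.76 and Vim -1.08 on the log2 scale in BAF155 cKO, and -0.64 and -0.75 in libraries labelled Pax6 cKO, and all 4 differences kept an adjusted p under 0.05.

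Prominin 1, encoded by Prom1, is a pentaspan protein of apical membrane protrusions. Prom1 (ENSMUSG00000029086, chr5:43993620-44102032) had 46.9, 55.2, 47.8 and 53.3 CPM in BAF155 cKO, 43.5, 44.6, 46.9 and 51.5 CPM in libraries labelled Pax6 cKO, and 59.0, 59.7, 68.2 and 66.2 CPM in controls. Every mutant library of both groups lay below every control. The log2 fold change was -0.32 (SE 0.09, edgeR adjusted p = 0.0256) in BAF155 cKO and -0.44 (SE 0.09, edgeR adjusted p = 0.00177) in libraries labelled Pax6 cKO. The call in BAF155 cKO was lost without BAF155 cKO replicate 1, BAF155 cKO replicate 3, control replicate 3 or control replicate 4 (log2 fold changes -0.29 to -0.28, edgeR adjusted p = 0.0601 to 0.0847). It was also lost with lane 1 alone (edgeR adjusted p = 0.148) and lane 3 alone (edgeR adjusted p = 0.0546), in a range of 0.00699 to 0.148 over all alternatives. The library kit does not mark strand, and 424 exon bases of Prom1 overlap the antisense gene Gm16401, which itself had 0.742 to 2.53 CPM.

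Fabp7 encodes brain lipid-binding protein, a fatty acid carrier of radial glia, and Dbi encodes acyl-CoA binding protein, which is also the precursor of peptides that act on GABA-A receptors. These 2 genes did not share the decrease. Fabp7 (ENSMUSG00000019874, chr10:57784881-57788450) had 905, 811, 865 and 1075 CPM in BAF155 cKO, 1116, 1215, 1138 and 1293 CPM in libraries labelled Pax6 cKO, and 1006, 989, 702 and 728 CPM in controls. All libraries labelled Pax6 cKO lay above every control, and the BAF155 cKO libraries overlapped the controls. Its log2 fold change was 0.09 (SE 0.13, edgeR adjusted p = 0.632) in BAF155 cKO and 0.48 (SE 0.13, edgeR adjusted p = 0.0116) in libraries labelled Pax6 cKO. Dbi (ENSMUSG00000026385, chr1:120113280-120121078) had 344, 277, 261 and 352 CPM in BAF155 cKO, 338, 338, 347 and 350.0 CPM in libraries labelled Pax6 cKO, and 322, 311, 260.3 and 262 CPM in controls. Its log2 fold changes were 0.10 (SE 0.11, edgeR adjusted p = 0.544) in BAF155 cKO and 0.25 (SE 0.11, edgeR adjusted p = 0.0786) in libraries labelled Pax6 cKO, and neither passed the test.

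Both genes have short transcripts, 880 bases for Fabp7 and 660 bases for Dbi, against a median of 3221 over the tested genes, and in the controls both were lower in replicates 3 and 4, where short genes as a whole were lower against long ones. After a correction for GC content and transcript length the log2 fold change of Fabp7 in libraries labelled Pax6 cKO was 0.05 (edgeR adjusted p = 0.667). Against the 2 male controls alone it was 0.25 (edgeR adjusted p = 0.228). The call was lost both ways, in a range of 0.00171 to 0.667 over all alternatives. With the same correction the values for Fabp7 in BAF155 cKO (-0.15) and for Dbi in BAF155 cKO (-0.11) and in libraries labelled Pax6 cKO (-0.08) turned negative, none of them past the test. The correction also made the decrease of Nes smaller. Nes was then at -0.40 in BAF155 cKO and -0.61 in libraries labelled Pax6 cKO (edgeR adjusted p = 0.0209 and 0.000926). That of Vim became larger, at -0.84 and -1.13 (edgeR adjusted p = 0.00908 and 0.000812).

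**Figure D2:**
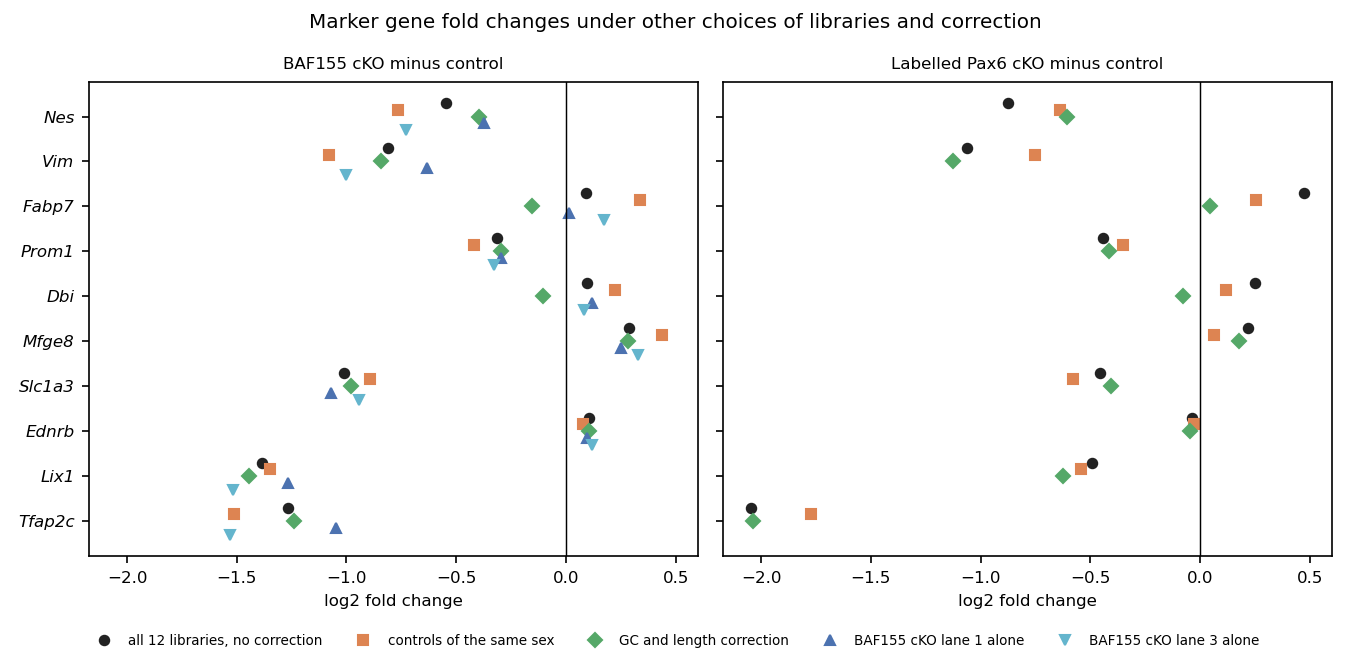
Log2 fold change of each marker (x axis) against control for BAF155 cKO (left) and labelled Pax6 cKO (right), with all 12 libraries, with the 2 controls of the same sex, after correction for GC content and transcript length, and with the BAF155 cKO libraries of 1 lane. The values of Slc1a3, Lix1 and Tfap2c stay well below 0 at each setting, while those of Fabp7 and Dbi move to or across 0 after the correction.

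Slc1a3 and Lix1 gave the clearest steps between the 3 groups. Slc1a3 encodes the glutamate transporter GLAST, a marker of radial glia that later marks astrocytes. Slc1a3 (ENSMUSG00000005360, chr15:8634124-8710764) had 134, 142, 151 and 154 CPM in BAF155 cKO, 212, 204, 214 and 221 CPM in libraries labelled Pax6 cKO, and 324, 311, 265 and 268 CPM in controls. None of the 3 groups overlapped another. The log2 fold change was -1.01 (SE 0.09, edgeR adjusted p = 1.49e-06) in BAF155 cKO and -0.46 (SE 0.08, edgeR adjusted p = 0.00133) in libraries labelled Pax6 cKO. Lix1 is named for its expression in limb and central nervous system. Lix1 (ENSMUSG00000047786, chr17:17402672-17459387) had 16.0, 18.5, 14.1 and 15.3 CPM in BAF155 cKO, 26.0, 31.4, 30.5 and 31.2 CPM in libraries labelled Pax6 cKO, and 44.3, 42.3, 43 and 37.9 CPM in controls. Its 3 groups were likewise separate. Its log2 fold change was -1.38 (SE 0.10, edgeR adjusted p = 2.83e-07) in BAF155 cKO and -0.49 (SE 0.10, edgeR adjusted p = 0.00172) in libraries labelled Pax6 cKO.

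Tfap2c encodes the transcription factor AP-2γ, present in radial glia and basal progenitors, and had the largest change of the 10 markers in libraries labelled Pax6 cKO. Tfap2c (ENSMUSG00000028640, chr2:172549593-172558622) had 17.1, 20.1, 12.9 and 14.1 CPM in BAF155 cKO, 9.61, 10.5, 9.33 and 8.12 CPM in libraries labelled Pax6 cKO, and 29.5, 34.7, 48.6 and 42.8 CPM in controls. The order of the groups differed from that of Slc1a3 and Lix1, with libraries labelled Pax6 cKO lowest and no overlap between any 2 groups. The log2 fold change was -1.26 (SE 0.16, edgeR adjusted p = 0.000107) in BAF155 cKO and -2.05 (SE 0.16, edgeR adjusted p = 6.11e-07) in libraries labelled Pax6 cKO. With controls of matching sex the values were -1.51 and -1.77, both with an adjusted p under 0.05.

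Mfge8 and Ednrb were called in neither comparison. Mfge8 is a secreted protein that bridges phosphatidylserine to integrins. Mfge8 (ENSMUSG00000030605, chr7:79133768-79149060) had 128, 152, 140.3 and 159 CPM in BAF155 cKO, 125, 166, 129.8 and 132 CPM in libraries labelled Pax6 cKO, and 138, 126, 107 and 105 CPM in controls. The log2 fold change was 0.29 (95% interval 0.05 to 0.52, edgeR adjusted p = 0.0959) in BAF155 cKO and 0.22 (95% interval -0.02 to 0.46, edgeR adjusted p = 0.141) in libraries labelled Pax6 cKO. Without control replicate 1, Mfge8 passed the test in BAF155 cKO (log2 fold change 0.36, edgeR adjusted p = 0.0383), as it did against the 2 female controls alone (0.44, edgeR adjusted p = 0.0203), in a range of 0.0203 to 0.326 over all alternatives. Ednrb, the endothelin B receptor, is carried by radial glia and also by vascular cells. Ednrb (ENSMUSG00000022122, chr14:103814625-103844402) had 61.3, 81.2, 75.4 and 71.3 CPM in BAF155 cKO, 65.9, 65.0, 61.7 and 69.4 CPM in libraries labelled Pax6 cKO, and 62.9, 70.6, 61.6 and 74.0 CPM in controls. The groups overlapped, and the log2 fold change was 0.10 (95% interval -0.09 to 0.30, edgeR adjusted p = 0.442) in BAF155 cKO and -0.04 (95% interval -0.23 to 0.16, edgeR adjusted p = 0.769) in libraries labelled Pax6 cKO.

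**Figure D3:**
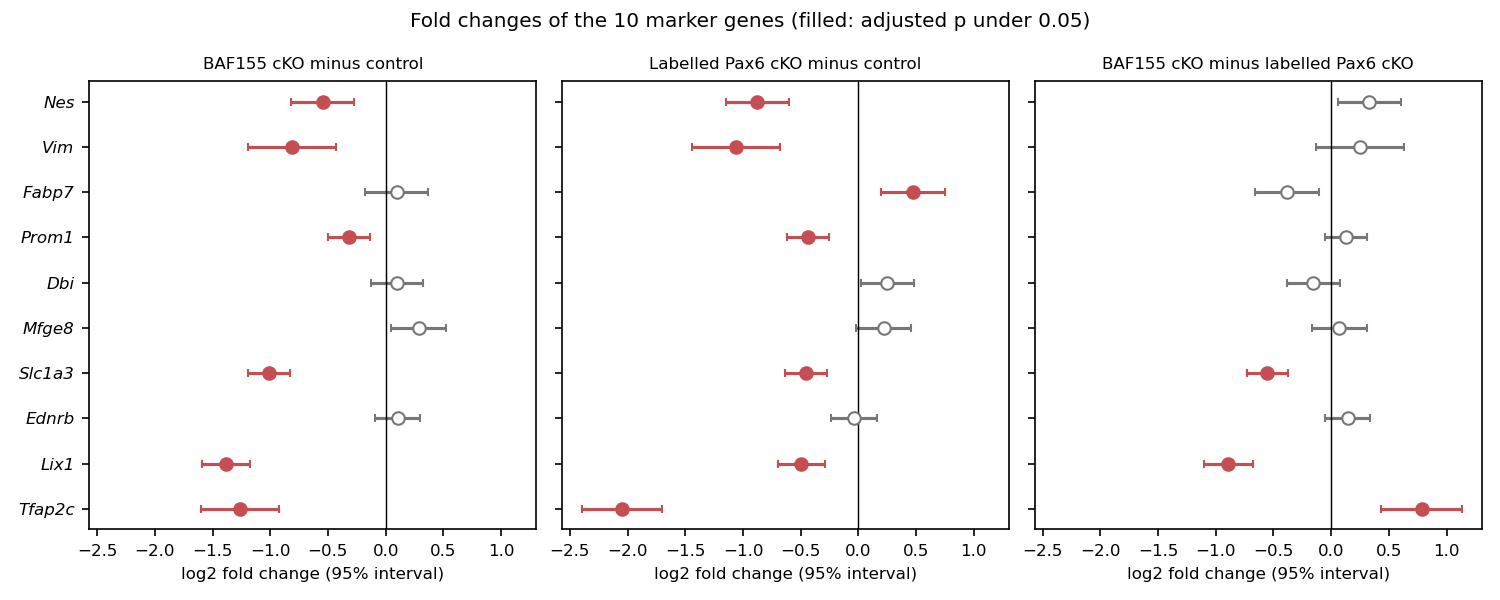
Log2 fold change of each marker (x axis, point with 95% interval from edgeR) for BAF155 cKO against control, labelled Pax6 cKO against control, and BAF155 cKO against labelled Pax6 cKO; filled points have an adjusted p under 0.05. In the right panel Slc1a3 and Lix1 lie below 0 and Tfap2c above 0, and the intervals of the other 7 genes show their uncalled differences.

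The 2 mutant groups were then compared directly, which tests the differences in size described above. Of the 10 markers, 3 were called, Slc1a3 and Lix1 lower and Tfap2c higher in BAF155 cKO than in libraries labelled Pax6 cKO, where 4.31% of all genes were called, 2.3% higher and 2.01% lower. Slc1a3 averaged 145 ± 9.12 CPM in BAF155 cKO and 213 ± 7.20 CPM in libraries labelled Pax6 cKO (SD, n = 4 each), a log2 difference of -0.55 (SE 0.08, edgeR adjusted p = 0.0023). Lix1 averaged 16.0 ± 1.86 CPM in BAF155 cKO and 29.8 ± 2.56 CPM in libraries labelled Pax6 cKO (SD, n = 4 each), a log2 difference of -0.89 (SE 0.10, edgeR adjusted p = 0.000146). Tfap2c averaged 16.1 ± 3.21 CPM in BAF155 cKO and 9.39 ± 0.99 CPM in libraries labelled Pax6 cKO (SD, n = 4 each), a log2 difference of 0.78 (SE 0.16, edgeR adjusted p = 0.0136). Nes was higher in each BAF155 cKO library than in any library labelled Pax6 cKO, and Fabp7 lower, but neither passed the test (log2 differences 0.33 and -0.38, edgeR adjusted p = 0.155 and 0.108). With Tfap2c, Slc1a3 and Lix1 that made 2 markers wholly above and 3 wholly below. Among all genes, 15.3% were separate between these groups, 7.5% above and 7.83% below.

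Sex and genotype cannot be told apart between the mutant groups, as the BAF155 cKO libraries were all female and those labelled Pax6 cKO all male. Within lane 1, which holds BAF155 cKO replicates 1 and 2 and all libraries labelled Pax6 cKO, the log2 differences were -0.62 for Slc1a3 (edgeR adjusted p = 0.0101), -0.77 for Lix1 (edgeR adjusted p = 0.00434) and 1.0 for Tfap2c (edgeR adjusted p = 0.0091). Tfap2c lost its call with only BAF155 cKO replicates 3 and 4 (0.53, edgeR adjusted p = 0.21) and without replicate 4 of the libraries labelled Pax6 cKO (0.72, edgeR adjusted p = 0.057), in a range of 0.000443 to 0.21 over all alternatives.

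The markers did not vary as 1 block across the libraries. Of the 45 pairs among the 10 genes, 23 had a positive Pearson correlation of log2 CPM over the 12 libraries, 13 were above 0.5 and 12 were below -0.5. Nes, Vim, Prom1 and Tfap2c formed 1 set, with r of 0.96 for Nes and Vim and 0.95 for Nes and Tfap2c. Fabp7 and Dbi formed another (r = 0.87), opposite to the first, with r of -0.86 for Nes and Fabp7. Slc1a3 and Lix1 went together at r = 0.95, and with the group means removed their correlation was 0.02, whereas Nes and Vim kept 0.88, Nes and Tfap2c 0.79 and Nes and Fabp7 -0.85. Prom1 was then less close to the first set, at 0.37 with Tfap2c and 0.51 with Vim, from 0.90 and 0.88. Slc1a3 turned from 0.44 to -0.71 with Nes and from 0.49 to -0.87 with Tfap2c. These points share their groups, libraries and the split of the controls, so the values are descriptions.

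**Figure D4:**
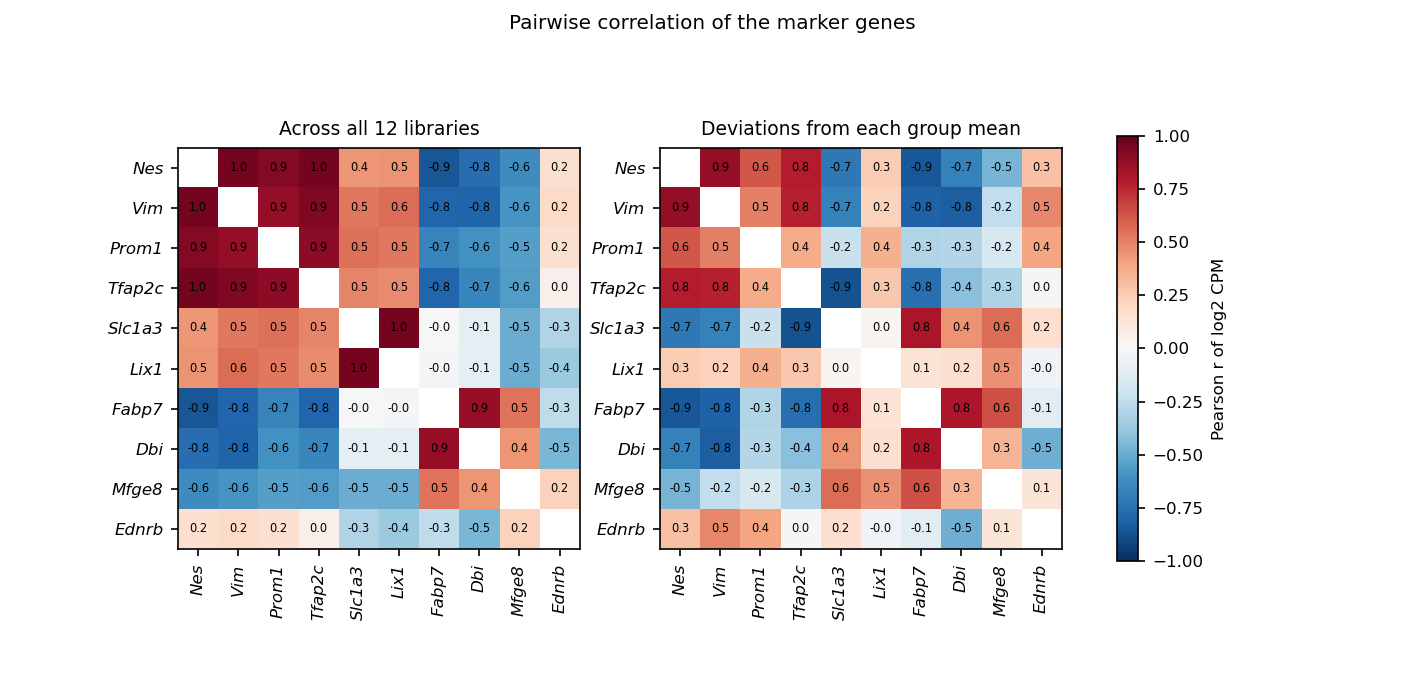
Pearson correlation (colour and printed value) of log2 CPM between each pair of markers, over all 12 libraries (left) and after subtracting each group's mean (right). Nes, Vim, Prom1 and Tfap2c form a positive block on the left, opposite Fabp7 and Dbi, and the pair Slc1a3 and Lix1 is at 0.95 on the left and 0.02 on the right.

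The genes most like each marker over the 12 libraries were sought among 10778 autosomal protein-coding genes of at least 5 CPM, the 10 markers left out. Genes picked as the highest of so many correlations share the group differences of their marker by choice, so these values are descriptions. The nearest to both Slc1a3 and Lix1 was Lpar1, a lysophosphatidic acid receptor gene (r = 0.97 with each), whose log2 fold change was -2.43 in BAF155 cKO and -1.14 in libraries labelled Pax6 cKO. Vxn followed for Slc1a3 (r = 0.97) and Cxcl12, a chemokine gene, for Lix1 (r = 0.96). Tfap2c was nearest to Neurog2, a proneural factor (r = 0.996), and Celsr1, an atypical cadherin (r = 0.99). Nes was nearest to Cmtm4 and Antxr1, Vim to Aco1 and Eftud2, and Fabp7 to Mkks and Mat2b, with r of 0.99 for each of these 6 genes. Prom1 was nearest to B3glct and Axl (both r = 0.95), Dbi to Zfp931 and Tctex1d2 (r = 0.97 and 0.96), Mfge8 to Pdzrn4 and Dse (both r = 0.91), and Ednrb to Akap5 and Wdfy1 (r = 0.91 and 0.89).

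A list of 28 other genes of radial glia, 13 transcription factors and 15 genes of the membrane, matrix and metabolism, was counted in the same way. It too was chosen with earlier results of these data known, so its counts beside those of all genes are descriptions. In BAF155 cKO 11 of the 28 were lower, 1 was higher and 16 were not called, with a median log2 fold change of -0.36, where 7.56% of all genes were lower. In libraries labelled Pax6 cKO 19 were lower, 2 higher and 7 not called, with a median of -0.54, where 18.9% of all genes were lower. Veph1 had the largest decrease in both comparisons, at 4.93 ± 0.50 CPM in BAF155 cKO, 3.19 ± 0.25 CPM in libraries labelled Pax6 cKO and 29.3 ± 3.14 CPM in controls (SD, n = 4 each). Aldoc, the brain isoform of aldolase, averaged 43.7 ± 5.38 CPM in BAF155 cKO, 63.3 ± 6.46 CPM in libraries labelled Pax6 cKO and 207 ± 24.0 CPM in controls (SD, n = 4 each). Tnc, the matrix protein tenascin C, had log2 fold changes of -1.53 in BAF155 cKO and -1.41 in libraries labelled Pax6 cKO (edgeR adjusted p = 4.88e-07 and 7.58e-07). Pdpn, the membrane glycoprotein podoplanin, fell by 0.73 on the log2 scale in BAF155 cKO (edgeR adjusted p = 0.000139). Ddah1, an enzyme that degrades a methylated arginine, fell by 1.01 in libraries labelled Pax6 cKO (edgeR adjusted p = 0.000426). Both genes had lower means than controls in the other mutant group too. Pdpn averaged 34.9 ± 2.50 CPM in libraries labelled Pax6 cKO and 44.5 ± 2.79 CPM in controls (SD, n = 4 each). Ddah1 averaged 118 ± 27.8 CPM in BAF155 cKO and 209 ± 42.8 CPM in controls (SD, n = 4 each).

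Among the transcription factors, Pax6 was the 1 higher gene in BAF155 cKO, and with it left out the median of the remaining 27 genes was -0.44 in BAF155 cKO and -0.58 in libraries labelled Pax6 cKO. Sox3, a SOXB1 factor of progenitors, averaged 6.21 ± 2.17 CPM in BAF155 cKO, 4.72 ± 0.34 CPM in libraries labelled Pax6 cKO and 21.6 ± 10.1 CPM in controls (SD, n = 4 each; log2 fold changes -1.77 and -2.19, edgeR adjusted p = 0.00191 and 0.000216). Gli3, a mediator of Hedgehog signalling, Nr2e1, a nuclear receptor of neural stem cells, and Hes1, a Notch effector, were lower in libraries labelled Pax6 cKO, with log2 fold changes of -1.67, -1.39 and -0.85 (edgeR adjusted p = 0.00043, 0.000179 and 0.00151). The means of Gli3 and Hes1 were also below control in BAF155 cKO. Gli3 averaged 50.4 ± 18.0 CPM there and 84.4 ± 26.9 CPM in controls, and Hes1 12.6 ± 1.41 and 18.6 ± 4.70 CPM (SD, n = 4 each). Sox2 and Sox1, further SOXB1 factors, passed the test in neither comparison (log2 fold changes 0.14 and 0.32 in BAF155 cKO, 0.25 and 0.37 in libraries labelled Pax6 cKO). Hopx fell by 0.56 in BAF155 cKO (edgeR adjusted p = 0.0116) and was higher by 0.36 in libraries labelled Pax6 cKO (edgeR adjusted p = 0.036), and the difference between the mutant groups was -0.92 (edgeR adjusted p = 0.00127). The higher value in libraries labelled Pax6 cKO was lost without control replicate 3 or 4 or any 1 of that group's own libraries (edgeR adjusted p = 0.0598 to 0.124). It was 0.18 against the 2 male controls alone (edgeR adjusted p = 0.417) and 0.073 after the correction for GC content and transcript length (edgeR adjusted p = 0.658), and over 20 alternatives its adjusted p was 0.0149 to 0.658. In BAF155 cKO, Nr2e1 and Id4, an inhibitor of bHLH factors, were lower at -0.71 and -0.56 (edgeR adjusted p = 0.0268 and 0.0286), but the calls depended on single libraries. Each was lost without BAF155 cKO replicate 1 or 4 or control replicate 3 or 4, that of Nr2e1 also without BAF155 cKO replicate 3, and that of Id4 also without control replicate 2 (edgeR adjusted p = 0.0552 to 0.102). Hopx in BAF155 cKO missed the test with lane 1 alone (-0.41, edgeR adjusted p = 0.124), against the 2 female controls alone (-0.37, edgeR adjusted p = 0.0594) and with only the 8 libraries compared (edgeR adjusted p = 0.0504). Sox3 missed it with lane 1 alone (edgeR adjusted p = 0.0501).

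**Figure D5:**
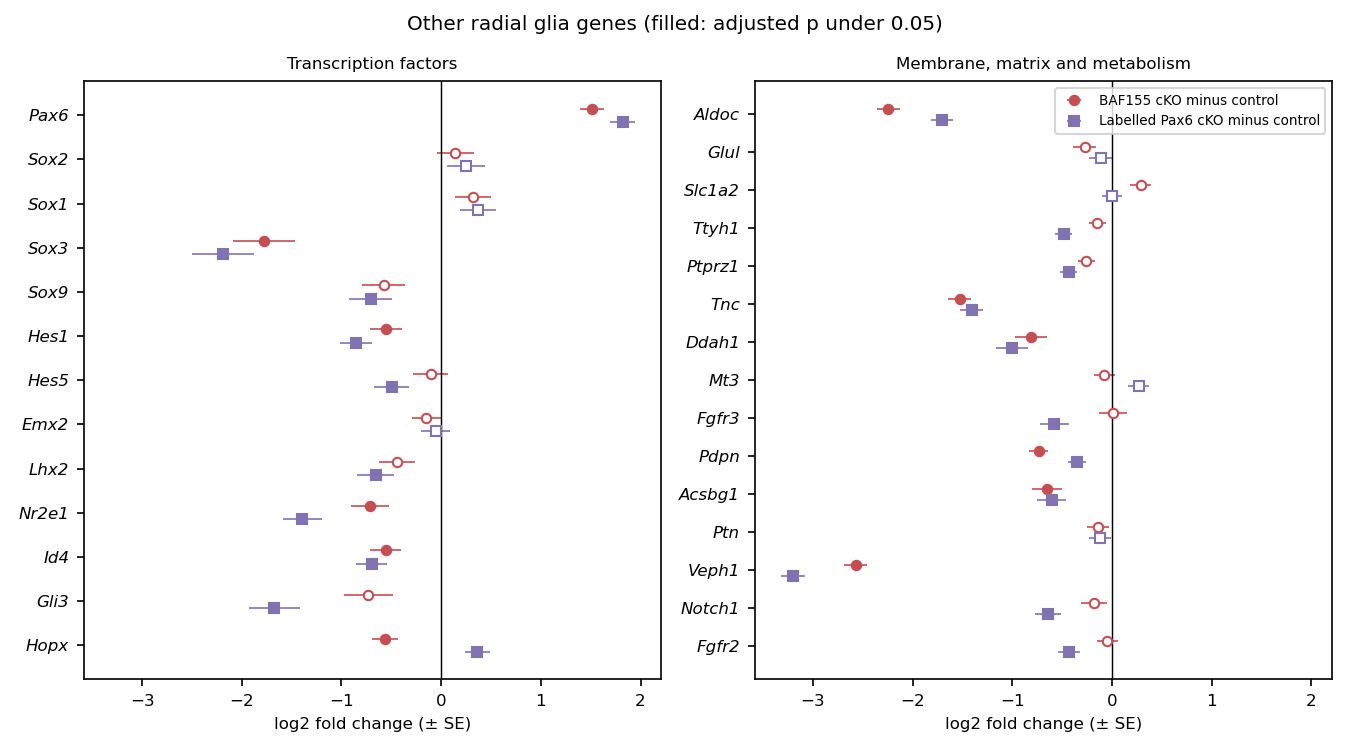
Log2 fold change against control (x axis, point ± SE) of 13 transcription factors (left) and 15 genes of the membrane, matrix and metabolism (right) of radial glia, in BAF155 cKO (circles) and libraries labelled Pax6 cKO (squares); filled points have an adjusted p under 0.05. Filled points other than those of Pax6 and Hopx lie below 0, with Veph1, Aldoc and Tnc lowest on the right, and Pax6 lies above 0 in both groups.

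Relatives and partners of the markers made up a list of 35 genes, of which 30 were tested. In BAF155 cKO 2 were higher and 6 lower, where 13.6% of all genes were called. In libraries labelled Pax6 cKO 3 were higher and 7 lower, a share close to the 35.5% of all genes called there, so those calls say nothing particular about the list. Among the other AP-2 genes, Tfap2d averaged 2.98 ± 0.94 CPM in BAF155 cKO, 2.24 ± 0.15 CPM in libraries labelled Pax6 cKO and 11.4 ± 2.75 CPM in controls (SD, n = 4 each). Tfap2a, at 0.87 ± 0.24 CPM in BAF155 cKO and 0.26 ± 0.15 CPM in controls (SD, n = 4 each), was higher by 1.75 on the log2 scale (edgeR adjusted p = 0.00567). Edil3, a relative of Mfge8, fell by 0.58 in BAF155 cKO (edgeR adjusted p = 0.00254), and Itgav, a subunit of integrins that bind Mfge8, was at -0.46 in BAF155 cKO and -0.65 in libraries labelled Pax6 cKO (edgeR adjusted p = 0.0126 and 0.000667). Slc1a1, a neuronal glutamate transporter gene, was at -0.37 in BAF155 cKO and -0.35 in libraries labelled Pax6 cKO (edgeR adjusted p = 0.0132 and 0.00737). In BAF155 cKO the calls of Slc1a1 and Tfap2a were lost with lane 3 alone (edgeR adjusted p = 0.0755 and 0.0577), that of Slc1a1 also with only the 8 libraries compared (edgeR adjusted p = 0.0556), and that of Itgav with lane 1 alone (edgeR adjusted p = 0.12). Fabp5, another fatty acid carrier, was higher by 0.41 in libraries labelled Pax6 cKO (edgeR adjusted p = 0.0116), and by 0.19 against the 2 male controls alone (edgeR adjusted p = 0.245).

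For the 7 other intermediate filament genes the median log2 fold change was -0.18 in BAF155 cKO, where edgeR called 0 of 7, 1 had an unadjusted p under 0.05 and DESeq2 called 1. Ina was at -0.18 and Nefm at -0.33 (edgeR adjusted p = 0.37 and 0.219). Ina passed the test against the 2 female controls alone (-0.41, edgeR adjusted p = 0.0428) and Nefm with lane 3 alone (-0.63, edgeR adjusted p = 0.0469). In the endothelin pathway edgeR called 0 of 4 tested genes in BAF155 cKO and 2 had an unadjusted p under 0.05, where Ece2 and Ece1, which process endothelins, had log2 fold changes of 0.46 and 0.20 (edgeR adjusted p = 0.0758 and 0.119). Ece2 did pass in 5 of 22 alternatives: by DESeq2 (adjusted p = 0.049), with the replicate number as a block (edgeR adjusted p = 0.0302), against the 2 female controls alone (edgeR adjusted p = 0.0359), without BAF155 cKO replicate 2 (edgeR adjusted p = 0.0167) and without control replicate 1 (edgeR adjusted p = 0.0242). Ece1 passed after the GC and length correction (0.30, edgeR adjusted p = 0.0189). Several smaller calls among these relatives depended on single libraries. Leaving out each of the 12 libraries in turn ended the calls in BAF155 cKO of Acbd3 (-0.34) in 5 fits, Slc1a5 (0.35) in 9 and Tfap2e (-1.07) in 10, with edgeR adjusted p of up to 0.118, 0.133 and 0.157. In libraries labelled Pax6 cKO it ended those of Gfap (-1.08) in 4 fits, Tspo (0.58) in 7 and Ece1 (0.25) in 7, with edgeR adjusted p of up to 0.187, 0.157 and 0.11. Lix1l, the paralog of Lix1, was lower there (-0.35, edgeR adjusted p = 0.0215), a call lost without control replicate 3 or 4 or labelled Pax6 cKO replicate 1 or 3 (edgeR adjusted p = 0.0639 to 0.0715). Smarcc1, Hopx, Id4, Gli3, Tnc, Veph1, Slc1a1, Itgav, Tfap2a, Tfap2d, Ina, Nefm, Lix1l and Tspo overlap exons of a gene on the opposite strand, and with a kit that does not mark strand the reads of both cannot be told apart there. Ece2 shares 2937 exon bases with Gm49333, and Sox1 86 with Gm25239, on the same strand, so their values are uncertain in the same way.

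Markers of other cells were measured in the same libraries, where 13.6% of all genes were called in BAF155 cKO and 35.5% in libraries labelled Pax6 cKO. Basal intermediate progenitor markers summed to 477 to 699 CPM in BAF155 cKO, 487 to 516 CPM in libraries labelled Pax6 cKO and 696 to 1073 CPM in controls, with 4 of 8 lower in BAF155 cKO and 6 of 8 lower in libraries labelled Pax6 cKO. They were Eomes, Neurog2, Insm1, Neurog1, Btg2, Gadd45g, Neurod4 and Elavl4. Elavl4 belongs to a family of neuronal RNA-binding proteins, so these sums are not of basal progenitors alone. The median log2 fold change of the 8 genes was -1.08 in BAF155 cKO and -1.42 in libraries labelled Pax6 cKO. Markers of the ventral telencephalon summed to 1032 to 1162 CPM in BAF155 cKO, 1219 to 1327 CPM in libraries labelled Pax6 cKO and 475 to 724 CPM in controls, with 6 of 8 higher in BAF155 cKO and 7 of 8 higher in libraries labelled Pax6 cKO. The ventral sums of both mutant groups lay wholly above those of controls. The progenitor sums lay wholly below those of controls in libraries labelled Pax6 cKO and overlapped them in BAF155 cKO. Neuronal markers summed to 7181 to 8903 CPM in BAF155 cKO, 7964 to 9056 CPM in libraries labelled Pax6 cKO and 9083 to 9791 CPM in controls. Of 10, 2 were lower in BAF155 cKO, and 5 were lower and 1 higher in libraries labelled Pax6 cKO. The neuronal sums of both mutant groups lay wholly below those of controls, but in libraries labelled Pax6 cKO the ranges nearly touched (9056 against 9083 CPM).

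Erythroid markers summed to 327 to 652 CPM in BAF155 cKO, 496 to 555 CPM in libraries labelled Pax6 cKO and 262 to 369 CPM in controls, with 1 of 6 higher in BAF155 cKO and 2 of 6 higher in libraries labelled Pax6 cKO. Oligodendrocyte precursor markers summed to 52.2 to 67.3 CPM in BAF155 cKO, 49.8 to 58.6 CPM in libraries labelled Pax6 cKO and 32.3 to 51.9 CPM in controls. Of 4, 2 were higher and 1 lower in BAF155 cKO, and 2 were higher in libraries labelled Pax6 cKO. Pericyte markers summed to 192 to 256 CPM in BAF155 cKO, 241 to 265 CPM in libraries labelled Pax6 cKO and 209.5 to 252 CPM in controls, with 1 of 6 lower in BAF155 cKO, and 2 higher and 2 lower in libraries labelled Pax6 cKO. Endothelial markers overlapped between groups, at 125 to 199 CPM in BAF155 cKO, 169 to 195 CPM in libraries labelled Pax6 cKO and 152 to 187 CPM in controls. Of 8 endothelial markers edgeR called 0 in BAF155 cKO, with 0 at an unadjusted p under 0.05 and 0 by DESeq2, and 2 higher in libraries labelled Pax6 cKO. Microglial markers summed to 47.6 to 66.5 CPM in BAF155 cKO, 65.5 to 81.3 CPM in libraries labelled Pax6 cKO and 62.2 to 84.7 CPM in controls, with 1 of 8 lower in BAF155 cKO and 1 of 8 higher in libraries labelled Pax6 cKO. Meningeal and fibroblast markers summed to 14.4 to 18.8 CPM in BAF155 cKO, 16.4 to 17.4 CPM in libraries labelled Pax6 cKO and 13.2 to 16.4 CPM in controls, with 1 of 5 tested higher in each mutant group. Choroid plexus markers summed to 7.23 to 20.7 CPM in BAF155 cKO, 25.8 to 329 CPM in libraries labelled Pax6 cKO and 16.9 to 35.4 CPM in controls. Of 4 tested choroid plexus markers edgeR called 0 in BAF155 cKO, with 1 at an unadjusted p under 0.05 and 1 by DESeq2, and 1 higher in libraries labelled Pax6 cKO. The part of these differences in the values of the radial glia markers was not tested.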

How the data were processed

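Gene counts for 12 libraries of E15.5 cortex, 4 per group, were used as the authors deposited them: whole-number read counts per Ensembl gene, per the file contents. RNA was isolated with RNeasy and libraries made with the TruSeq RNA v2 kit, per the labels' protocols. The submitters' processing notes give mm10 as the build; aligner, counter and annotation: not given in the sources used here. Identifiers were matched to GENCODE M21 (48349 of 48709; the other 360 took at most 0.0397% of a library's reads). Counts were fitted in edgeR 4.0.16 (R 4.3.3) with filterByExpr, TMM scaling and the robust quasi-likelihood test, 1 coefficient per group over all 12 libraries, and p-values were adjusted by Benjamini-Hochberg over 16511 genes. Log2 CPM for correlations used a prior count of 2. The fit was tested on simulated data that held no lane, sex or replicate structure, so that test does not cover these. No 2 libraries of the same group agreed within sampling noise, and libraries of different groups were not compared in this way. Lix1 and Tfap2c had the fewest reads of the markers and so the most counting error.

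The marker genes and the gene lists were chosen with earlier results of these data known. Named beyond the 10 markers are the targeted genes, up to 4 called genes of smallest adjusted p per list, direction and comparison with control (or the 2 most abundant where none was called), and the 2 nearest genes per marker; Sox1, Sox2, the cell type lists and Neurod6 are named besides. Alternatives were DESeq2 1.42.0, RLE size factors, other filters, only the 8 libraries compared, a replicate block, single lanes, controls of matching sex, leaving out each library and, added after seeing the data, a GC and length correction.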

Additional observations from a re-analysis of the deposited data

Results flagged for a closer look

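In the libraries labelled Pax6 cKO, the lowest Lix1 value, 26.0 CPM in replicate 1, lay apart from the other 3 libraries of the group, which had 30.5 to 31.4 CPM. The gap to the nearest library was 0.836 of the group's range, above the 95% critical value of Dixon's test for 4 samples. It was the 1 such value among 30 groups checked (10 genes in 3 groups), and chance gives about 1 in 20.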

How the results depend on the processing

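Counts of called markers were 6, 7 and 3 for BAF155 cKO against control, labelled Pax6 cKO against control and BAF155 cKO against labelled Pax6 cKO. With BAF155 cKO lane 1 alone the first was 3. Leaving out each library in turn gave 5 to 7, 7 to 7 and 2 to 3. Counts over all genes were less stable: the 2246, 5866 and 711 genes called became 1001 to 4073, 3825 to 6601 and 307 to 900 with 1 library left out. The 2246 became 1035 with only the 8 libraries compared, 682 with lane 1 alone and 4294 with controls of the same sex; the 5866 became 1375 with controls of the same sex; the 711 became 1332 by DESeq2, 470 with lane 1 alone and 209 with lane 3 alone. Of the other radial glia genes, 12, 21 and 6 were called, and 9 to 16, 17 to 22 and 3 to 10 with 1 library left out. The 12 became 6 with lane 1 alone, the 21 became 11 with controls of the same sex, and the 6 became 11 with the 8 libraries compared, 11 by DESeq2 and 1 with lane 3 alone. The causes were not tested.

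Direction turned for 4 values, none past the test: Ednrb in libraries labelled Pax6 cKO without control replicate 4 (0.0089, in a range of -0.092 to 0.0089 with 1 library left out, against -0.04), and, after the GC and length correction, Fabp7 in BAF155 cKO (-0.15) and Dbi in BAF155 cKO (-0.11) and in libraries labelled Pax6 cKO (-0.079). Dbi passed the test in libraries labelled Pax6 cKO with the 8 libraries compared (edgeR adjusted p = 0.0364), and Fabp7 between the mutant groups by DESeq2 (adjusted p = 0.042). Prom1 in BAF155 cKO missed it with the 8 libraries compared (edgeR adjusted p = 0.0612).

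Same-numbered libraries did not clearly deviate together (correlations -0.23 to 0.38 over 12 pairs, against -0.38 to 0.34 over the other pairs). The ranges overlap, so this check shows no clear pairing by number but cannot exclude one. With the replicate number as a block, 6, 7 and 3 markers, 2245, 5689 and 497 of all genes and 11, 22 and 4 of the other radial glia genes were called.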
